A study of Mus musculus with 12 samples.

Results

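The miRNA precursors mmu-mir-744, mmu-mir-872, mmu-mir-423 and mmu-mir-346 were followed through the small RNA libraries of a study of TLR4 and alcohol in the mouse cortex. These 4 of the 589 precursors in the deposited table were chosen by their difference between the TLR4-KO and the WT libraries, so that this difference is a description here and carries no test. The study compared 4 groups of female mice on the C57BL/6J background: WT mice on water, WT mice given 10% (v/v) ethanol in the drinking water over 5 months, called WT + EtOH, TLR4-KO mice on water, and TLR4-KO mice given ethanol in the same way, called TLR4-KO + EtOH. The TLR4-KO mice lack the innate immune receptor in all cells, and all mice were 7 weeks old at the start. For each group the RNA of 9 mice, selected by the study for its quality, was pooled by 3 into 3 libraries. The SDs below are therefore spreads between pools, and the variation between mice is not seen.

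A miRNA is cut from a hairpin precursor by Drosha and Dicer, and usually 1 of its arms, 5p or 3p, is loaded into Argonaute, where bases 2 to 8 of the arm (the seed) pair with target mRNAs. Many miRNA genes lie in introns of protein-coding genes and can be transcribed with them. TLR4 is a receptor of the innate immune system that signals to NF-kB, and alcohol activates this signalling in glial cells of the brain. A change in a precursor's value does not say which of its targets changed, and no mRNA was measured in these libraries. The genotype could therefore not be checked in them.

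The hairpins are shown because the deposited values are given per precursor, and reads of both arms may stand behind a value. The sequences are those of RefSeq on the mouse genome build GRCm38.p6, where all 4 members had an entry. They are written 5′ to 3′ with both mature arms in capitals.
mmu-mir-744: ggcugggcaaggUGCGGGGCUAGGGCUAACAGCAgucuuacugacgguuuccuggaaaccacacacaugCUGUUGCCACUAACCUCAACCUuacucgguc
mmu-mir-872: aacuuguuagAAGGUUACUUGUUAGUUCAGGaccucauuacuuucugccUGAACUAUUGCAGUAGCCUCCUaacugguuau
mmu-mir-423: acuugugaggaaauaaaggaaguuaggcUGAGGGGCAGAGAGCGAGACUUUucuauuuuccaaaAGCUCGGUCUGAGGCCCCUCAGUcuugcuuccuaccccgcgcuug
mmu-mir-346: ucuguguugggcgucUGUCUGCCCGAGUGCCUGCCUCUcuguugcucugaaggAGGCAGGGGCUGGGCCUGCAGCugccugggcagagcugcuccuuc
The hairpins were 81 to 109 bases long. The GC content was lowest in mmu-mir-872, at 39.5%, and was 51.4% in mmu-mir-423, 56.0% in mmu-mir-744 and 65.3% in mmu-mir-346. The precursor that was lower in TLR4-KO was thus the one with the lowest GC content of the 4. Only 75.6% of the precursors in the table matched a RefSeq hairpin, and the relation of the values to GC content over the table was not tested.

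All 4 genes lay in an intron of a protein-coding gene on the same strand, with no exon of the host over the hairpin in any transcript of GENCODE M21. mmu-mir-744 (chr11:65734733-65734832, minus strand) was in intron 3 of 10 of Map2k4, a kinase of the JNK stress pathway. mmu-mir-872 (chr4:94665157-94665237, plus strand) was in intron 13 of 19 of Ift74, a protein of the transport along cilia. mmu-mir-423 (chr11:77078064-77078172, minus strand) was in intron 1 of 6 of Nsrp1, a splicing regulator, 263 bases from the start of the gene. mmu-mir-346 (chr14:34894609-34894706, plus strand) was in intron 2 of 15 of Grid1, a glutamate receptor subunit of the delta type, and this intron was 123044 bases long. The values of the host genes are unknown here, since the libraries hold small RNA.

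The mature arms are shown with the seed in capitals, so that the members can be compared by the bases that select targets.
mmu-miR-744-5p: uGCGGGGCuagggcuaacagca
mmu-miR-744-3p: cUGUUGCCacuaaccucaaccu
mmu-miR-872-5p: aAGGUUACuuguuaguucagg
mmu-miR-872-3p: uGAACUAUugcaguagccuccu
mmu-miR-423-5p: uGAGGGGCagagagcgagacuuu
mmu-miR-423-3p: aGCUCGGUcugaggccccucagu
mmu-miR-346-5p: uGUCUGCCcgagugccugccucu
mmu-miR-346-3p: aGGCAGGGgcugggccugcagc
No arm shared its seed with an arm of another member. Over the first 8 bases, mmu-miR-744-5p and mmu-miR-423-5p differed at 1 base, C3A, with positions counted from the 5′ end and the base of mmu-miR-744-5p given first. The other pairs of the 24 between members differed at 4 to 8 of these bases. Among 1678 other mouse arms, 3 were as close to mmu-miR-744-5p as this, with mmu-miR-423-5p itself and mmu-miR-6921-5p among the 3. The seed of mmu-miR-423-5p is also that of mmu-miR-6921-5p, and the seed of mmu-miR-346-3p is also that of mmu-miR-7001-5p, but neither precursor had a row among the 589. The GC content of the arms ran from 38.1% in mmu-miR-872-5p to 77.3% in mmu-miR-346-3p, against a median of 52.2% over 1738 arms of RefSeq.

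The authors deposited 1 normalized value per precursor and library, a score without a unit. Its highest value was 135 in each of the 12 libraries, and 265 precursors were listed at 0 in all of them. No read count stands beside a value, so that the reads behind a single value and its counting error are not known from the table. Differences are subtractions on this scale, and no fold change can be read from them. For the members, equal ranks in 2 libraries went with equal or nearly equal values. mmu-mir-744 was at 79.9 and rank 37 in replicates 1 and 2 of TLR4-KO + EtOH. mmu-mir-872 had rank 180 in replicate 1 of WT + EtOH (22.7) and of TLR4-KO + EtOH (22.4). A member's value therefore mostly restates its rank in the library, and so do the differences and SDs below. In all 3 WT libraries and in replicate 1 of each of the other groups, 319 to 329 precursors were listed at 0, and in the other 6 libraries 342 to 373 were. The WT group thus lies in only 1 of these sets of libraries, and for a difference from WT the group and the set cannot be told apart in full. These replicates 1 also had the 3 lowest values of the mean correlation of a library with the other 11, from 0.937 to 0.956, while the other 9 libraries were at 0.958 to 0.971. A different normalized listing of the libraries exists, which was not used here, and in it the precursors of replicate 1 of these groups stand in another order than in the deposited columns, with mmu-mir-872 about as high as in WT. Which listing holds the libraries as labelled could not be settled, and values without these 3 libraries, which leave 3 libraries of WT and 2 of each other group, are therefore given beside those of all 12.

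**Figure D1:**
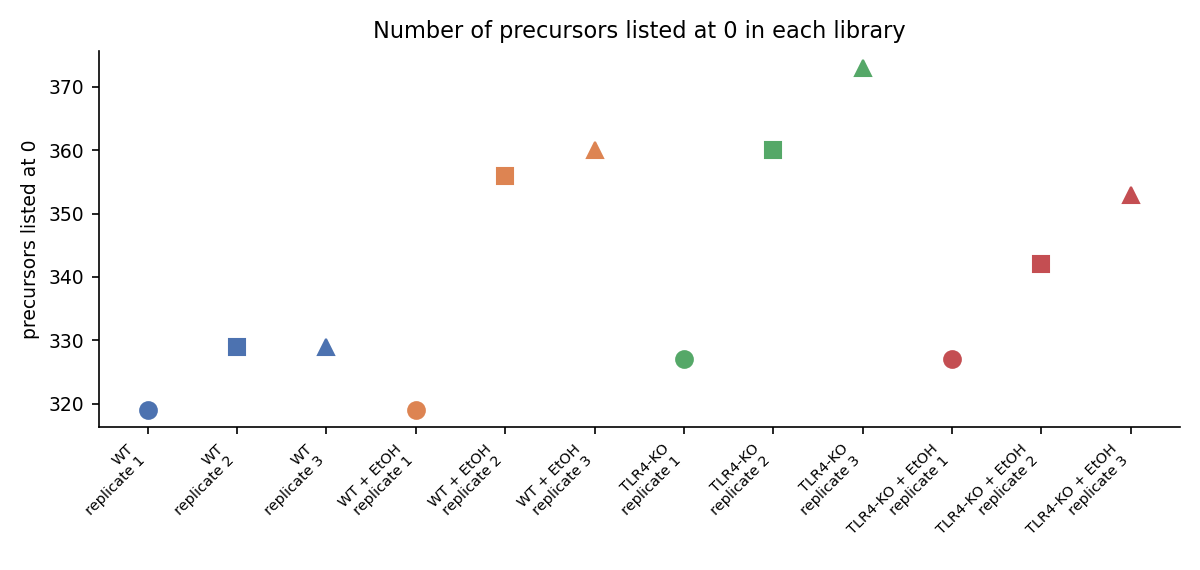
Number of the 589 precursors listed at 0 (y axis) in each of the 12 libraries (x axis), with 1 point per library, the color for the group and the shape for the replicate number. Replicate 1 of each alcohol group and of TLR4-KO lies with the 3 WT libraries, between 319 and 329, and the other 6 libraries lie between 342 and 373.

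Markers of other tissues and cells were read in the same way, as the sum of the values of each list in a library. Of the 13 precursors of the neural list, 11 were above 0 in all 12 libraries, among them the 3 of miR-124 and the 3 of miR-9, which mark neurons and neural tissue, while mmu-mir-219a-1 was above 0 in 1 library and mmu-mir-219a-2 in 5. The neural sum of the WT libraries (690 to 696) lay below that of the WT + EtOH libraries (699 to 737) with no overlap, while those of TLR4-KO (641 to 703) and of TLR4-KO + EtOH (674 to 702) overlapped with WT. The precursors of the liver list (1) and of the muscle list (3) were at 0 in all libraries. Of the 10 precursors of the list of choroid plexus and ciliated cells, 3 were above 0 in all libraries (mmu-mir-182, mmu-mir-183 and mmu-mir-34c), 8 were in any, and the sum of the list separated WT from the rest. Its sum was 278 to 314 in the WT libraries. It was 128 to 222 with alcohol in WT, 174 to 204 in the TLR4-KO libraries, and 172 to 195 with alcohol in TLR4-KO, and its defining mmu-mir-449a was at 0 throughout. The list holds mmu-mir-96, mmu-mir-182, mmu-mir-183, mmu-mir-200a and mmu-mir-200b, which the study reported as lowered by alcohol in WT cortex. The fall of the sum with alcohol was thus known beforehand. mmu-mir-182 (48.6 to 109 over the 12 libraries) and mmu-mir-183 (33.4 to 87.7) had the highest values of the list. Like this sum, mmu-mir-744, mmu-mir-872 and mmu-mir-423 had the WT libraries apart from the other 9. The part of choroid plexus and ciliated cells in their differences was not tested. The sums of the erythroid list (219 to 256), the leukocyte list (105 to 130) and the vessel list (192 to 204) overlapped between WT and the other groups, except that the lowest erythroid sum of WT (240.9) lay just above the highest of TLR4-KO + EtOH (240.6). Without the doubtful libraries the sum for choroid plexus and ciliated cells was at most 204 outside WT, the neural sums of WT and WT + EtOH still did not overlap (WT + EtOH at 699 to 710), and the leukocyte sums of WT (112 to 115) and TLR4-KO (115.3 to 126) no longer overlapped, nor did the ranges that the erythroid list has in WT and TLR4-KO + EtOH.

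mmu-mir-744 had the highest values of the members. They were 75.6, 76.0 and 75.6 in WT, 80.6, 81.6 and 85.2 in WT + EtOH, 87.7, 84.6 and 84.6 in TLR4-KO, and 79.9, 79.9 and 81.6 in TLR4-KO + EtOH. All 9 libraries of the other groups lay above WT, and the order of the means was WT, TLR4-KO + EtOH, WT + EtOH and TLR4-KO. WT + EtOH overlapped with both of its neighbours in this order, while TLR4-KO + EtOH lay wholly above WT and wholly below TLR4-KO. The means were 75.7 ± 0.238 in WT and 85.6 ± 1.80 in TLR4-KO (SD, n = 3 each).

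mmu-mir-872 had the lowest values and was the member that went the other way. They were 32.5, 33.2 and 38.2 in WT, 22.7, 27.0 and 31.2 in WT + EtOH, 4.20, 11.3 and 17.0 in TLR4-KO, and 22.4, 24.5 and 17.5 in TLR4-KO + EtOH. The order of the means was TLR4-KO, TLR4-KO + EtOH, WT + EtOH and WT, and the only neighbours that overlapped were the 2 alcohol groups. The gaps were narrow, since the highest TLR4-KO library (17.0) lay just under the lowest TLR4-KO + EtOH library (17.5). The means were 34.7 ± 3.09 in WT and 10.8 ± 6.41 in TLR4-KO (SD, n = 3 each), and the spread between the 3 TLR4-KO pools was the widest of any member in any group. The lowest of all 12 values, 4.20, was that of TLR4-KO replicate 1, which is 1 of the 3 doubtful libraries.

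mmu-mir-423 was listed at 45.6, 44.6 and 47.1 in WT, 51.6, 54.7 and 52.7 in WT + EtOH, 54.98, 55.7 and 55.7 in TLR4-KO, and 48.8, 55.03 and 54.1 in TLR4-KO + EtOH. WT was again below the other 9 libraries. TLR4-KO + EtOH overlapped with WT + EtOH and with TLR4-KO, and its replicate 1 (48.8), a doubtful library, lay apart from its other pools. The means were 45.7 ± 1.25 in WT and 55.5 ± 0.436 in TLR4-KO (SD, n = 3 each).

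mmu-mir-346 was listed at 38.3, 36.8 and 38.6 in WT, 38.6, 42.5 and 46.2 in WT + EtOH, 49.6, 49.1 and 50.2 in TLR4-KO, and 41.8, 49.2 and 46.9 in TLR4-KO + EtOH. The order of the means was WT, WT + EtOH, TLR4-KO + EtOH and TLR4-KO, and each neighbour in this order overlapped with the next. WT and TLR4-KO, at its ends, did not overlap, with 37.9 ± 0.978 against 49.6 ± 0.520 (SD, n = 3 each). mmu-mir-346 was the only member whose WT + EtOH libraries reached into the WT range.

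**Figure D2:**
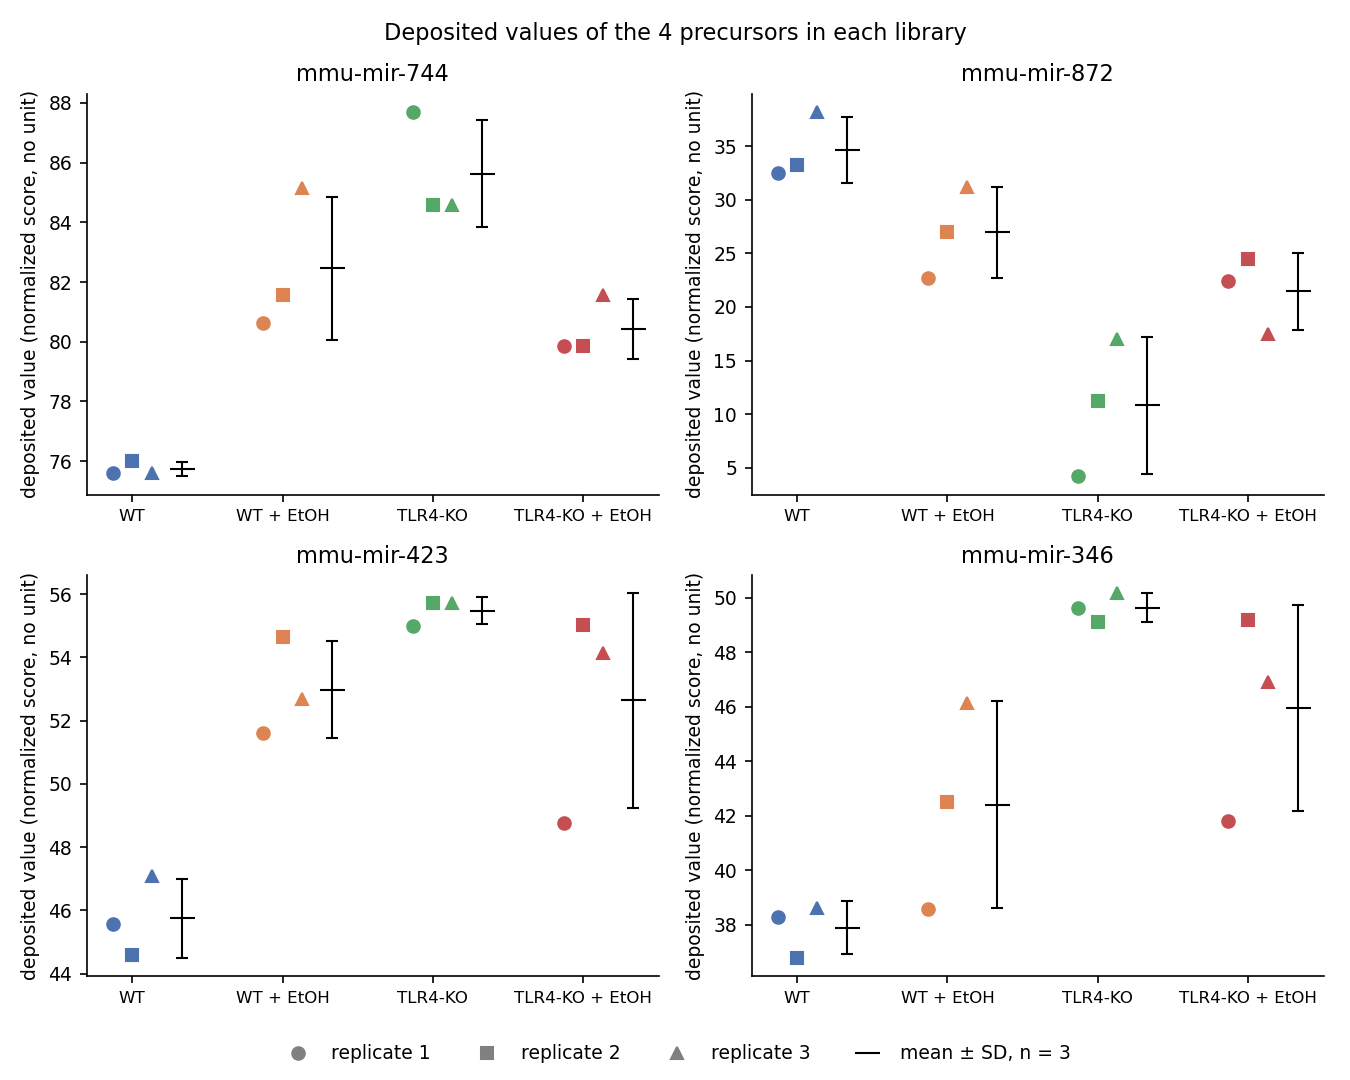
Deposited value (y axis, normalized score without a unit, a scale of its own for each precursor that does not start at 0) of mmu-mir-744, mmu-mir-872, mmu-mir-423 and mmu-mir-346 in each library by group (x axis). Points are single libraries with the shape for the replicate number, and the bar beside them is the mean ± SD (n = 3). The WT libraries lie below the TLR4-KO libraries for mmu-mir-744, mmu-mir-423 and mmu-mir-346 and above them for mmu-mir-872.

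By rank among the precursors above 0 in a library, the members covered most of the range. The deposited values are not stated to be per length, so that a rank orders values and not molecules. mmu-mir-744 had a median rank of 35 over the 12 libraries and went from rank 43 to 44 in WT to rank 26 to 30 in TLR4-KO. mmu-mir-423 had a median rank of 82 and went from 99 to 109 in WT to 75 to 78 in TLR4-KO. mmu-mir-346 had a median rank of 108 and went from 125 to 133 in WT to 90 to 95 in TLR4-KO. mmu-mir-872 had a median rank of 176.5 and went from 128 to 147 in WT to 196 to 249 in TLR4-KO. Among the 190 precursors above 0 in all libraries, the SD over the 12 libraries of mmu-mir-872 (9.85) was the 4th highest, against a median SD of 4.51. The SDs of mmu-mir-744 (3.99) and mmu-mir-423 (4.13) were below that median, and that of mmu-mir-346 was 5.10. Without the doubtful libraries the median ranks were 34 for mmu-mir-744, 163 for mmu-mir-872, 80 for mmu-mir-423 and 103 for mmu-mir-346. The SD of mmu-mir-872 (8.97) was then again the 4th highest of the 190, and those of the other members (3.98, 4.59 and 5.24 for mmu-mir-744, mmu-mir-423 and mmu-mir-346) were above the median of 3.58.

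The difference between TLR4-KO and WT, which addressed the role of the receptor without alcohol, is the one that selected the members. It was 9.90 (SE 1.26) for mmu-mir-744, 9.73 (SE 1.58) for mmu-mir-423, 11.7 (SE 2.19) for mmu-mir-346 and -23.8 (SE 3.62) for mmu-mir-872, from the limma fit with 1 mean per group. In this comparison 9 of the 589 precursors (1.53%) were called higher in TLR4-KO and 6 (1.02%) lower, at an adjusted p under 0.05. By size among these 15, mmu-mir-872 was 1st, mmu-mir-346 6th, mmu-mir-744 7th and mmu-mir-423 9th. At the edge of the rule, mmu-mir-27b was just inside, at 18.5 ± 6.22 in WT and 0 in all TLR4-KO libraries, and mmu-mir-3102 was just outside, at 13.9 ± 1.86 in WT and 0 in all TLR4-KO libraries. The libraries of WT and TLR4-KO did not overlap for 92 precursors (15.6%) and for all 4 members, as the rule makes likely. Shares of precursors called or not overlapping, here and below, are of all 589. Of these, 265 were at 0 in all libraries and could be neither called nor separate, while each member was above 0 in every library. The shares are thus low as a background for the members. Without the doubtful libraries 14 precursors (2.38%) were called higher and 17 (2.89%) lower, and the libraries of 126 (21.4%) did not overlap. The 4 members were among those called, as the rule makes likely. The libraries left are among those that chose them, so that these calls are no test of the members.

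TLR4-KO replicate 1, the only TLR4-KO library that lies with WT by its number of zeros and a doubtful one, differed from the WT mean by 11.98 for mmu-mir-744, -30.5 for mmu-mir-872, 9.23 for mmu-mir-423 and 11.7 for mmu-mir-346. Replicates 2 and 3, which are of the other set and remain when the doubtful libraries are left out, differed from it by 8.87, -20.5, 9.99 and 11.8 in the same order. All of these values were used by the rule, and their direction is no support for it.

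TLR4-KO + EtOH against WT + EtOH, the same genotype contrast under alcohol, shares no library with the difference that selected the members, and it is the only comparison in which they were tested. The SE of the fit, however, is estimated from all 12 libraries, those of WT and TLR4-KO included. No member passed the test. The difference was -2.03 (95% interval -4.93 to 0.864) for mmu-mir-744, -5.49 (-13.8 to 2.80) for mmu-mir-872, -0.345 (-3.97 to 3.28) for mmu-mir-423 and 3.55 (-1.47 to 8.57) for mmu-mir-346. The adjusted p was 1 for each of them with limma and Benjamini-Hochberg over the 589 precursors, and the lowest unadjusted limma p was 0.142, for mmu-mir-346. The 265 precursors at 0 in all libraries enter this adjustment and also the moderation behind the SEs and intervals. With only the 285 above 0 in at least 3 libraries, limma's adjusted p was 0.802, 0.682, 0.995 and 0.684 in the order above. The SEs were then 1.65, 3.52, 1.87 and 2.33 instead of 1.26, 3.62, 1.58 and 2.19. The two-sided exact permutation test of 3 against 3 libraries gave p = 0.3 for mmu-mir-744, 0.2 for mmu-mir-872, 0.9 for mmu-mir-423 and 0.3 for mmu-mir-346, where the smallest p it allows is 0.1. Of all precursors, 3 (0.509%) were called in this comparison, and 29 (4.92%) had libraries that did not overlap, none of them a member. With only the 6 libraries of these 2 groups in the fit, the SE was 1.44 instead of 1.26 for mmu-mir-744, 3.10 instead of 3.62 for mmu-mir-872, 2.08 instead of 1.58 for mmu-mir-423 and 2.99 instead of 2.19 for mmu-mir-346, and limma's adjusted p was again 1 for each. A p that misses the threshold does not show that the genotypes were alike under alcohol.

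The sign of the genotype difference was the same with and without alcohol for mmu-mir-872 and mmu-mir-346 and opposite for mmu-mir-744 and mmu-mir-423. Without the 3 doubtful libraries, the difference under alcohol was -2.65 for mmu-mir-744, -8.09 for mmu-mir-872, 0.913 for mmu-mir-423 and 3.71 for mmu-mir-346, and limma with Benjamini-Hochberg gave adjusted p = 1 for the first 3 of these and 0.981 for mmu-mir-346. With 2 libraries left in each of these groups, those of 79 precursors (13.4%) did not overlap, mmu-mir-872 and mmu-mir-346 among them, and 0 precursors (0%) were called by limma, with 29 at an unadjusted p under 0.05. The sign of mmu-mir-423 therefore rested on single libraries, and it turned to 1.59 when only replicate 1 of TLR4-KO + EtOH was left out and to 0.489 without replicate 2 of WT + EtOH. The value of mmu-mir-744 shrank to -0.683 without replicate 3 of WT + EtOH, that of mmu-mir-872 to -3.38 without the same library and to -3.49 without replicate 3 of TLR4-KO + EtOH. That of mmu-mir-346 ran from 1.63 without replicate 1 of WT + EtOH to 5.63 without replicate 1 of TLR4-KO + EtOH. Centring each library on its miR-181a and miR-181b precursors, the internal controls of the study, moved the differences of mmu-mir-744 to -3.22, of mmu-mir-423 to -1.53 and of mmu-mir-346 to 2.36. Across the 324 precursors above 0 in any library, the differences with and without alcohol had a Pearson correlation of -0.103, with the same sign in 125, and of -0.157 without the doubtful libraries, with the same sign in 103. These 2 comparisons share no library.

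**Figure D3:**
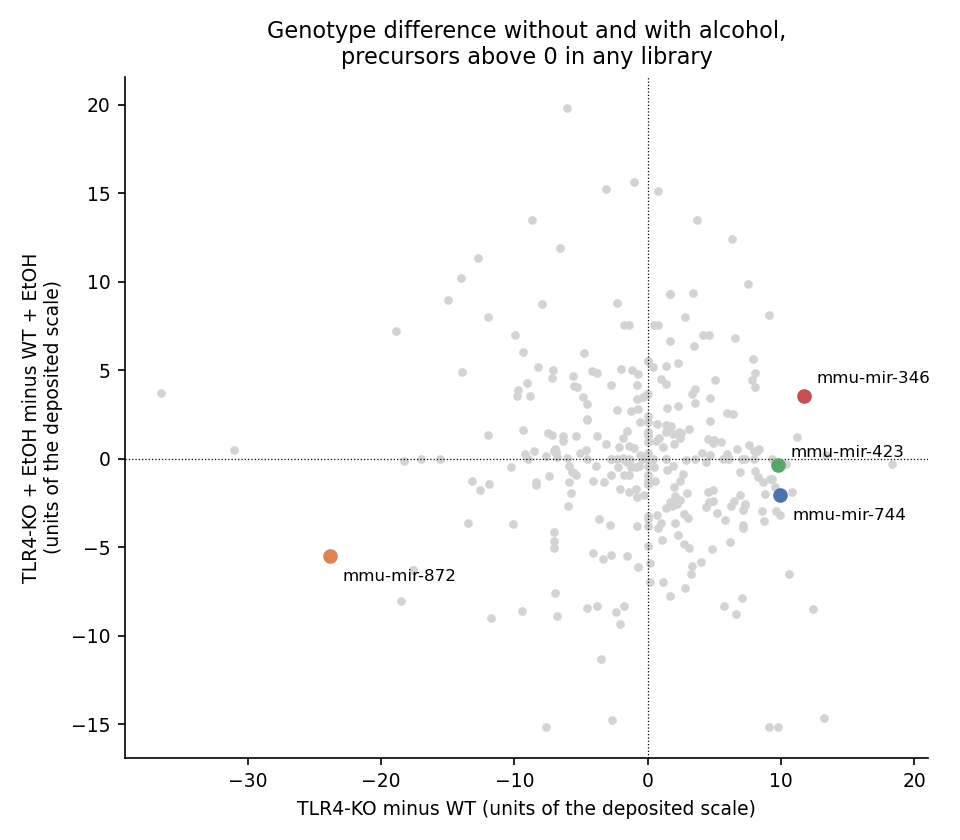
Difference TLR4-KO minus WT (x axis) against TLR4-KO + EtOH minus WT + EtOH (y axis), both in units of the deposited scale, with 1 point for each of the 324 precursors above 0 in any library and the 4 members in color. The members lie far from 0 on the x axis, by which they were selected, and between -5.49 and 3.55 on the y axis.

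The remaining differences share the WT or the TLR4-KO libraries with the comparison that selected the members, and they are given side by side as a description. In WT mice with alcohol, the difference from WT was 6.73 (SE 1.26) for mmu-mir-744, -7.71 (SE 3.62) for mmu-mir-872, 7.24 (SE 1.58) for mmu-mir-423 and 4.52 (SE 2.19) for mmu-mir-346. Their signs were those of TLR4-KO minus WT. WT + EtOH and WT did not overlap for 99 precursors (16.8%), among them mmu-mir-744, mmu-mir-872 and mmu-mir-423, and for 144 (24.4%) without the doubtful libraries, among them all 4 members. The difference of mmu-mir-346 fell to 2.65 without replicate 3 of WT + EtOH and to 1.84 with the set of libraries as a covariate.

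In TLR4-KO mice with alcohol, the difference from TLR4-KO was -5.20 for mmu-mir-744, 10.6 for mmu-mir-872, -2.84 for mmu-mir-423 and -3.68 for mmu-mir-346, with the SEs given above. The sign of each was opposite to that in WT mice, which the choice of members with WT and TLR4-KO far apart makes more likely. TLR4-KO + EtOH and TLR4-KO did not overlap for 36 precursors (6.11%), among them mmu-mir-744 and mmu-mir-872, and for 93 (15.8%) without the doubtful libraries, then with mmu-mir-423 as well. Without the 3 doubtful libraries these differences were -3.88, 6.83, -1.16 and -1.60 in the same order, and leaving out only replicate 1 of TLR4-KO + EtOH was enough to bring mmu-mir-423 to -0.903 and mmu-mir-346 to -1.60.

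TLR4-KO + EtOH differed from WT by 4.70 for mmu-mir-744, -13.2 for mmu-mir-872, 6.89 for mmu-mir-423 and 8.07 for mmu-mir-346. Their libraries did not overlap for 96 precursors (16.3%) and for all 4 members. They did not overlap for 137 precursors (23.3%) without the doubtful libraries, again with all 4 members. Each of the comparisons with WT thus had a share of 15.6% to 16.8% of precursors with separate libraries, and the comparisons that leave WT out had 4.92% and 6.11%. Without the 3 doubtful libraries, the differences from WT were 4.99, -13.7, 8.83 and 10.2 for TLR4-KO + EtOH and 7.64, -5.60, 7.92 and 6.44 for WT + EtOH, in the order mmu-mir-744, mmu-mir-872, mmu-mir-423 and mmu-mir-346.

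**Figure D4:**
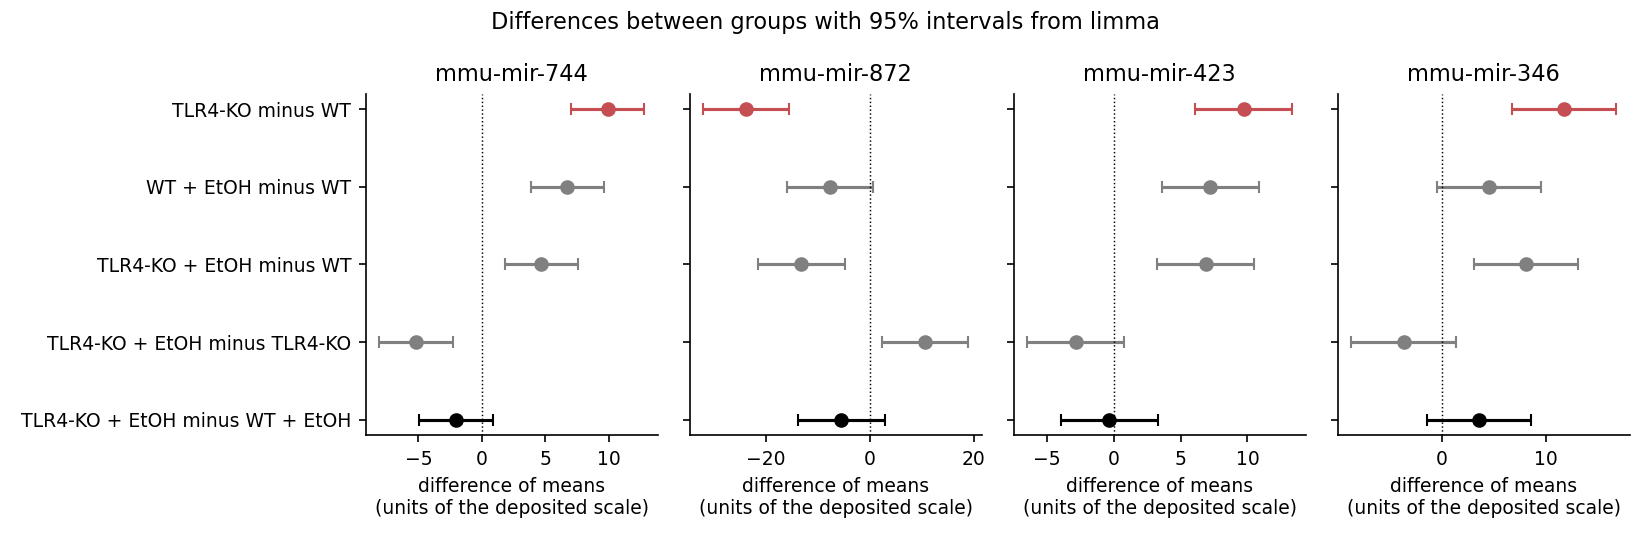
Differences between groups (x axis, units of the deposited scale) for 5 comparisons (rows) and the 4 members (panels), as points with 95% intervals from limma. The comparison that selected the members is in red, those that share libraries with it are in gray, and TLR4-KO + EtOH minus WT + EtOH, the only one tested, is in black with intervals that all include 0.

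Among themselves, the members that were higher in TLR4-KO had similar profiles over the 12 libraries, with a Pearson correlation of 0.835 for mmu-mir-744 and mmu-mir-423, 0.817 for mmu-mir-744 and mmu-mir-346 and 0.880 for mmu-mir-423 and mmu-mir-346. mmu-mir-872 was opposite to each of them, with -0.794, -0.719 and -0.737 in the order mmu-mir-744, mmu-mir-423 and mmu-mir-346. These values hold the difference that selected the members. After the group means were taken off, the correlation was 0.734 for mmu-mir-423 and mmu-mir-346 and 0.524 for mmu-mir-744 and mmu-mir-346, 0.0282 for mmu-mir-744 and mmu-mir-423, and -0.159 to 0.408 for the pairs with mmu-mir-872. Without the doubtful libraries (9 left) the correlations were 0.863, 0.848 and 0.929 for the first 3 pairs and -0.718, -0.793 and -0.821 for those with mmu-mir-872, in the orders above. With the group means taken off, however, they were -0.0477 for mmu-mir-423 and mmu-mir-346, 0.422 for mmu-mir-744 and mmu-mir-346, and -0.722 for mmu-mir-744 and mmu-mir-423, so that the likeness of mmu-mir-423 and mmu-mir-346 within groups rested on the doubtful libraries. The libraries share a normalization, which these correlations include.

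The precursors with the profile most like that of a member were searched among 188 precursors, the member itself left aside. These were above 0 in all 12 libraries and varied between them. For mmu-mir-744 they were mmu-mir-150, a miRNA of lymphocytes (r = 0.962), mmu-mir-1981 (0.889) and mmu-mir-666 (0.851). For mmu-mir-423 they were mmu-mir-485 (0.927), mmu-mir-346 (0.880) and mmu-mir-150 (0.876), and for mmu-mir-346 they were mmu-mir-485 (0.882), mmu-mir-423 (0.880) and mmu-mir-150 (0.838). For mmu-mir-872 they were mmu-mir-3071 (0.871), mmu-mir-28a (0.852) and mmu-mir-136 (0.802), and mmu-mir-3071 and mmu-mir-136 lie on opposite strands of the same stretch of chromosome 12, so that they are not separate loci. With Spearman's correlation 9 of these 12 places were kept, with the group means taken off 2 were, and without the doubtful libraries 5 were, while the correlations of the 12 named pairs then ran from 0.805 to 0.955. mmu-mir-150 had a correlation of 0.889 with mmu-mir-744 over the 12 libraries with the group means taken off.

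The miRNAs linked to the signalling of TLR4 and NF-kB were set beside the members. Of the 21 precursors of this list, 20 had a row, 19 were above 0 in any library and 15 in all 12. None was called between TLR4-KO + EtOH and WT + EtOH by limma, and none had an unadjusted p under 0.05, with a median difference of 0.773 against 0 over the 324 precursors above 0. Between TLR4-KO and WT, 2 of the 20 were called higher, mmu-mir-125a by 4.64 (SE 0.497, limma adjusted p = 0.00215) and mmu-mir-125b-2 by 4.36 (SE 0.285, limma adjusted p = 6.69e-05), and none lower, with a median of 0.846 against 0. Over all 589 precursors, 9 (1.53%) were called higher in this comparison and 6 (1.02%) lower. The differences of all 4 members in it were larger in size than those of mmu-mir-125a and mmu-mir-125b-2, as the rule that chose the members makes likely. mmu-mir-125a and mmu-mir-125b-2 had the smaller SEs. Their values were 109 to 115 and 110 to 115 over the 12 libraries, on a scale with a highest value of 135. Without the doubtful libraries 3 of the 20 were called higher between TLR4-KO and WT (mmu-mir-125a, mmu-mir-125b-2 and mmu-mir-181c), against 14 (2.38%) of all 589. Lower were 4 (mmu-mir-146a and the 3 precursors of miR-9, which share their mature sequence), against 17 (2.89%) of all. The median was 0.169. Between the alcohol groups again none was called by limma, also none before adjustment. Of the 20, 15 were above 0 in all libraries, against 190 of the 589, so that the shares of calls are not alike in what they count. In the comparison that selected the members, the marker lists held 1 call higher, mmu-mir-150 among the 4 leukocyte markers. They held 1 lower each among the 4 erythroid markers (mmu-mir-451a) and the 10 of choroid plexus and ciliated cells (mmu-mir-96). The median difference was 3.66 in the leukocyte list, where 1 precursor was lower and only 2 were above 0 in all libraries. It was -1.82 in the erythroid list, where 2 were lower, and -11.2 for choroid plexus and ciliated cells, where 7 were lower. Between the alcohol groups the marker lists held no call by limma, with 1 unadjusted p under 0.05 each in the neural and the erythroid list. Without the doubtful libraries the calls of mmu-mir-150 and mmu-mir-451a remained, that of mmu-mir-96 did not, the median of choroid plexus and ciliated cells was -10.9, and the miR-9 precursors were called lower as members of the neural list too.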

How the data were processed

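Cortex RNA of 36 mice was pooled by 3 and sequenced as 12 small RNA libraries. The authors trimmed adapters with Cutadapt, mapped reads with Bowtie2 2.2.5 and TopHat to databases of non-coding RNA (genome build GRCm38 by the submitters' processing notes), counted reads and normalized them by the trimmed mean of M values. The values the authors deposited are a normalized score per precursor, and the step from counts to its scale is not given in the sources used here. The members' values follow their ranks, as described above. Since the table holds no counts, limma 3.58.1 in R 4.3.3 was used and no count model was run. The fit had 1 mean per group over all 12 libraries, Benjamini-Hochberg adjustment over 589 precursors and a threshold of 0.05 (prior degrees of freedom 0.308). The script was tested on simulated data. Exact permutation tests used scipy 1.17.1 in Python 3.11.15.

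The members and the lists (TLR4 and NF-kB, neural tissue, erythroid cells, leukocytes, vessels, choroid plexus and ciliated cells, liver and muscle) were chosen with earlier results of these data known. Named beside the members are the precursors at the edge of the rule, and the 3 with the highest Pearson correlation to each member among precursors above 0 in all libraries. List precursors were to be named only for a seed shared with a member or a summed level that moves with it, and mmu-mir-125a, mmu-mir-125b-2, mmu-mir-146a, mmu-mir-181c, mmu-mir-150, mmu-mir-451a and the precursors of miR-9, miR-124 and miR-219a among the lists were named after their values were seen. Alternatives were other normalizations, a filter on low values, fewer groups, a replicate block, robust moderation, libraries left out, and, chosen after seeing the data, the 3 doubtful libraries left out and the set of libraries as a covariate. Nothing says that pools shared no cage or day, so that p-values measure the spread between pools.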

Additional observations from a re-analysis of the deposited data

Results flagged for a closer look

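The alcohol difference had opposite signs in the 2 genotypes for each of the 4 members. All 3 WT + EtOH libraries lay on 1 side of the WT mean and all 3 TLR4-KO + EtOH libraries on the other side of the TLR4-KO mean. How many of the 589 precursors show this pattern was not counted. The choice of members with WT and TLR4-KO far apart makes it more likely, since groups between these 2 give opposite signs. The alcohol difference in TLR4-KO mice less the alcohol difference in WT mice was -11.9 (SE 1.79) for mmu-mir-744, 18.3 (SE 5.12) for mmu-mir-872, -10.1 (SE 2.24) for mmu-mir-423 and -8.20 (SE 3.10) for mmu-mir-346. It was not tested, because the WT and TLR4-KO libraries that chose the members for being far apart enter it on both sides. Without the 3 doubtful libraries it was 12.4 for mmu-mir-872.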

How the results depend on the processing

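The 3 calls between TLR4-KO + EtOH and WT + EtOH became 1 with quantile normalization, 0 with only the 2 groups compared (25 at an unadjusted limma p under 0.05), 0 without the 3 doubtful libraries (29 unadjusted) and 5 with the set of libraries as a covariate. Leaving out single libraries gave 0 to 3 calls, with 0 without replicate 3 of WT + EtOH or replicate 2 of TLR4-KO + EtOH (32 and 24 unadjusted), 1 without any 1 of the 3 WT libraries, replicate 2 or 3 of TLR4-KO or replicate 1 of TLR4-KO + EtOH. With the replicate block there were 2 calls. Pairing by number was looked at over precursors above 0 in all libraries, with the group means taken off. Same-numbered libraries of different groups then had correlations of -0.109 to 0.153 (18 pairs, 10 over 0.1). Of 12 libraries, 6 correlated best with their own number. These values do not settle whether the numbers pair the libraries. For the members, 0 of 84 tested differences under alternatives passed the threshold (adjusted p from 0.303 to 1), and 3 changed sign, all for mmu-mir-423: 0.913 without the 3 doubtful libraries and a range of -1.54 to 1.59 over single libraries left out. Of 360 untested member differences under alternatives, 359 moved by less than 1 SD of the member within groups, 1 moved by more (the alcohol difference between genotypes of mmu-mir-872, given above) and 0 changed sign. Many of the 360 could not move. Leaving out a library of a group that a difference does not use, or adding the replicate block, leaves the difference as it was. The margin is also wide, since the fall of mmu-mir-346 in WT + EtOH minus WT from 4.52 to 1.84 lies within it. With the set of libraries as a covariate, TLR4-KO minus WT was 9.80, -27.1, 7.82 and 9.07 for mmu-mir-744, mmu-mir-872, mmu-mir-423 and mmu-mir-346. Between TLR4-KO and WT, 15 precursors were called with all libraries and 31 without the doubtful ones. The reads behind a deposited value are not known from the table, and the precision rests on 3 pools per group.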
